A study of Homo sapiens with 9 samples.

Results

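The hypoxia response genes described here are 10 genes chosen by name out of 62666 in the gene table: the oxygen-regulated transcription factor subunits HIF1A and EPAS1, the oxygen sensor EGLN3, and 7 genes known as targets of these factors, CA9, VEGFA, ADM, NDRG1, BNIP3, ANKRD37 and BHLHE40. They were measured by stranded, poly(A)-enriched RNA sequencing in 9 libraries, 3 from each of 3 human mammary epithelial lines. MCF10A does not form tumours, MCF10AT1 is its derivative carrying activated HRAS, which stands for a premalignant stage, and MCF10Ca1a forms tumours and is descended from the HRAS-bearing cells. The lines stand for stages of breast cancer progression, and the study asked how expression changes between them. All groups were cultures of an established line without a treatment arm, kept in DMEM/F12 with insulin, L-glutamine, epidermal growth factor, hydrocortisone and cholera toxin. The horse serum was 5% for MCF10A and MCF10Ca1a and 2.5% for MCF10AT1, so serum and line cannot be told apart in comparisons with MCF10AT1. Each stage is represented by a single line. The labels do not say whether the replicates are separate cultures, so p-values measure only the spread between these libraries, which may be technical. Oxygen tension and cell density are not given in the sources used here.

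Cells sense oxygen through the hypoxia-inducible factors. The alpha subunits, encoded by HIF1A and EPAS1 (HIF-2 alpha), are made continuously, and in well-oxygenated cells prolyl hydroxylases of the EGLN family mark them for ubiquitination by the VHL complex and destruction. When oxygen falls, the alpha subunits persist, pair with ARNT and bind short hypoxia response elements near genes for glucose use, pH control, blood vessel growth and mitochondrial turnover, several of which feed back on the pathway. Because this regulation acts largely on the protein, the RNA of HIF1A or EPAS1 is not a measure of pathway activity. Only RNA was measured here.

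Library totals, in mega-counts (M), were 32.93 to 35.24 M estimated counts in MCF10Ca1a and 62.9 to 69.51 M in the other lines, and no replicate libraries held identical values. Between replicate libraries the chi-squared per degree of freedom over genes was 11.3 to 72.4 in MCF10A. It was 3.52 to 16.5 in MCF10AT1 and 2.39 to 4.13 in the shallower MCF10Ca1a libraries, and the fit below pools the spread over lines. All 10 genes passed the filter on low counts, which kept 17910 genes. Levels within a gene are given in CPM (counts per mega-count of library, scaled by trimmed mean of M-values normalisation), and levels between genes in TPM (transcript abundance, corrected for length and total). Epithelial markers summed to 2190 to 2990 TPM in MCF10A, 3330 to 3770 TPM in MCF10AT1 and 3960 to 4080 TPM in MCF10Ca1a, with KRT5 or KRT17 the highest and none of the 7 at 0. The 5 proliferation markers summed to 1480 to 1540, 1200 to 1260 and 335 to 340 TPM in the same order. Their part in the differences below was not tested. In bulk RNA, fewer cells of a type and less RNA per cell cannot be told apart.

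The 10 genes did not move as a block. Expression of 5 genes, EPAS1, CA9, VEGFA, ADM and BNIP3, was highest in MCF10Ca1a and lowest in MCF10AT1 by mean CPM, although the ADM libraries of MCF10A and MCF10AT1 overlapped, as did the BNIP3 libraries of MCF10A and MCF10Ca1a, and neither difference passed the test described next. NDRG1, ANKRD37 and EGLN3 were highest in MCF10A and lowest in MCF10Ca1a, and for NDRG1 the MCF10A and MCF10AT1 libraries overlapped. BHLHE40 had the opposite order, lowest in MCF10A and highest in MCF10Ca1a. HIF1A was lowest in MCF10A and covered the narrowest range, 1.30-fold from the lowest to the highest line, where CA9 covered the widest, 7.35-fold.

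In MCF10AT1 against MCF10A, 8 of the 10 genes passed the test (edgeR's quasi-likelihood test, Benjamini-Hochberg adjusted p under 0.05 over all genes), where 61.6% of all genes tested did. HIF1A and BHLHE40 rose, and EPAS1, EGLN3, CA9, VEGFA, BNIP3 and ANKRD37 fell. Genes called lower made up 31.8% of all genes and genes called higher 29.8%. The median log2 fold change was -0.53 over the 10 genes and -0.0038 over all genes. In MCF10Ca1a against MCF10A, 9 of the 10 passed, beside 80.9% of all genes, with 6 higher and 3 lower (all genes, 39.0% and 41.9%) and a median of 0.47 against -0.046. In MCF10Ca1a against MCF10AT1, 9 passed beside 78.4%, again 6 higher and 3 lower (38.0% and 40.3%), with a median of 0.94 against -0.044. Most of the 17910 genes tested were called between these lines, so a count of 8 or 9 of 10 is near the background and nothing is read from it. At least 2-fold changes were called for 3, 6 and 6 of the 10 genes in the 3 comparisons, beside 18.0%, 42.9% and 37.7% of all genes. With limma on log2(TPM + 1) the split of all genes called was 3447 higher and 6086 lower in MCF10AT1 against MCF10A, beside 5335 and 5690 with edgeR. It was 7550 higher and 6172 lower in MCF10Ca1a against MCF10A, beside 6979 and 7512, and 8203 higher and 5104 lower in MCF10Ca1a against MCF10AT1, beside 6808 and 7226. On that scale the 10 genes split into 2 higher and 7 lower, 7 higher and 3 lower, and 6 higher and 1 lower. Each pair of comparisons shares a line, so their values are set side by side and not counted against each other.

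**Figure D1:**
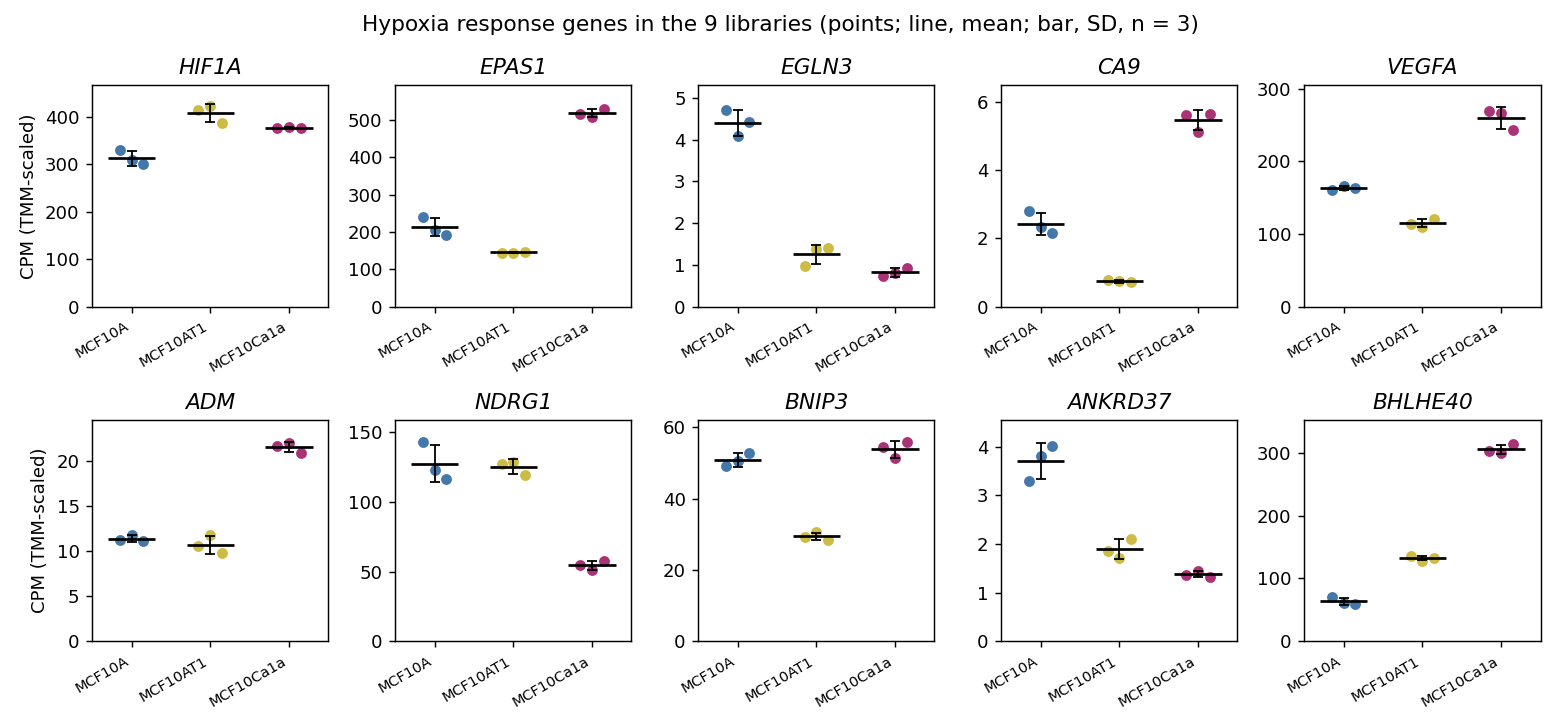
Expression of the 10 hypoxia response genes in CPM (vertical axes, each starting at 0) in the 9 libraries of MCF10A, MCF10AT1 and MCF10Ca1a; points are libraries, horizontal lines means and bars the SD (n = 3). CA9, EPAS1, VEGFA and BNIP3 dip in MCF10AT1, NDRG1, ANKRD37 and EGLN3 end lowest in MCF10Ca1a, and BHLHE40 is higher in each line than in the one to its left.

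Of the alpha subunits, HIF1A (chr14:61695513-61748259, plus strand of GRCh38) was expressed at 329.5, 309 and 299.7 CPM in the 3 MCF10A libraries, 414, 422 and 387 CPM in MCF10AT1 and 376, 379.5 and 376 CPM in MCF10Ca1a. No MCF10A library reached the other lines. HIF1A was 1.30-fold higher in MCF10AT1 than in MCF10A (log2 fold change 0.38, SE 0.0563, edgeR adjusted p = 4.75e-05) and 1.21-fold higher in MCF10Ca1a (log2 fold change 0.27, SE 0.0564, edgeR adjusted p = 0.000532). Between MCF10Ca1a and MCF10AT1 the difference did not pass the test, at -0.11 (SE 0.0563, edgeR adjusted p = 0.084), with a 95% interval of -0.25 to 0.026. Its value moved with the scale. It was -0.19 with the deposited length-scaled counts (adjusted p = 0.00483), -0.18 (adjusted p = 0.00394) with the scaled counts, -0.20 (adjusted p = 0.0076) with no filter and -0.10 (adjusted p = 0.0323) with only the lines compared, all of which passed, and on log2(TPM + 1) it had the other sign, 0.10 (limma adjusted p = 0.214), below the median of all genes. That median was 0.13 on log2(TPM + 1) and -0.044 in the count fit, so TPM changes between these lines are read against it. The difference also passed when 1 library was left out: -0.13 without MCF10A replicate 1 (edgeR adjusted p = 0.0115), -0.12 without MCF10A replicate 3 (0.036) and -0.16 without MCF10AT1 replicate 3 (0.0194).

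EPAS1 (chr2:46293667-46386703, plus strand) varied over a wider range than HIF1A. It stood at 240.4, 205 and 193 CPM in MCF10A, 144, 145 and 146 CPM in MCF10AT1 and 516, 509 and 531 CPM in MCF10Ca1a, with no overlap between lines and MCF10A replicate 1 the highest of its line. EPAS1 fell in MCF10AT1 to 145 CPM from 213 CPM (log2 fold change -0.55, SE 0.0712, edgeR adjusted p = 1.47e-05). In MCF10Ca1a it was 2.44-fold above MCF10A (log2 fold change 1.29, SE 0.0718, edgeR adjusted p = 7.93e-10) and 3.57-fold above MCF10AT1 (log2 fold change 1.84, SE 0.073, edgeR adjusted p = 3.18e-11). Per length, HIF1A was the more abundant of the pair in every line: 149 ± 15.1 TPM against 52.5 ± 8.95 TPM for EPAS1 in MCF10A, 178 ± 7.65 against 32.5 ± 0.256 TPM in MCF10AT1, and 190.2 ± 4.0 against 138 ± 1.22 TPM in MCF10Ca1a (SD, n = 3).

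EGLN3 (chr14:33924231-34462774, minus strand) encodes a prolyl hydroxylase that acts on the alpha subunits and is itself induced by hypoxia. Its counts were 302, 264 and 308 in the MCF10A libraries, 65, 91 and 87 in those of MCF10AT1 and 26, 27 and 33 in those of MCF10Ca1a, which is 4.40 ± 0.315, 1.25 ± 0.239 and 0.820 ± 0.103 CPM (SD, n = 3). The MCF10A libraries lay well above all others, while the lowest MCF10AT1 library, at 0.975 CPM, came close to the highest of MCF10Ca1a, at 0.931 CPM. EGLN3 was 3.52-fold lower in MCF10AT1 (log2 fold change -1.82, SE 0.146, edgeR adjusted p = 1.35e-07) and 5.35-fold lower in MCF10Ca1a (log2 fold change -2.42, SE 0.169, edgeR adjusted p = 9.23e-09) than in MCF10A. The further decrease from MCF10AT1 to MCF10Ca1a passed on counts (log2 fold change -0.60, SE 0.186, edgeR adjusted p = 0.00898) but not on log2(TPM + 1), where it was -0.18 (limma adjusted p = 0.111). With 26 to 33 counts per MCF10Ca1a library, this last step is measured with the least precision of the 3.

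Of the 5 targets with a window (VEGFA and NDRG1 were not analysed here), 4 genes carry the core of a hypoxia response element, ACGTG, within the RefSeq promoter window (GRCh38.p14, 250 bases before to 50 after the annotated start). They are shown because they share this element and yet differ in how they moved between the lines. The bases upstream of the start are printed 5′ to 3′ along the gene, with capitals on each ACGTG core and, in BNIP3, on each GCGTG core, read on either strand (CACGT and CACGC are the same cores on the opposite strand, and CACGTG holds ACGTG on both). CA9 is read from chr9:35673678-35673927 (plus strand), ANKRD37 from chr4:185396591-185396840 (plus strand), BHLHE40 from chr3:4979187-4979436 (plus strand) and BNIP3 from chr10:131981924-131982173 (minus strand).
CA9: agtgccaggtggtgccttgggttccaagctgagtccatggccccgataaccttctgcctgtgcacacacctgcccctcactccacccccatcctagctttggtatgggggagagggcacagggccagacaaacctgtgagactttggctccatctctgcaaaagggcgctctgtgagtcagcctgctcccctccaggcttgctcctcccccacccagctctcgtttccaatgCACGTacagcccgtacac
ANKRD37: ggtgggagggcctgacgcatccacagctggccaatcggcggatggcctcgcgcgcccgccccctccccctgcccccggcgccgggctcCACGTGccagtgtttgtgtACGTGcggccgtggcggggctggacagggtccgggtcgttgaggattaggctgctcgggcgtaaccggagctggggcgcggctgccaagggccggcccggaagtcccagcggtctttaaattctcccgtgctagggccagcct
BHLHE40: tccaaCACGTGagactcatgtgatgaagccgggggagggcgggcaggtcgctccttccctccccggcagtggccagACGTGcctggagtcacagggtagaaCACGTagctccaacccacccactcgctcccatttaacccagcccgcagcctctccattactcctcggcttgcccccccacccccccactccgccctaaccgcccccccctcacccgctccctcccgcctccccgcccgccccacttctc
BNIP3: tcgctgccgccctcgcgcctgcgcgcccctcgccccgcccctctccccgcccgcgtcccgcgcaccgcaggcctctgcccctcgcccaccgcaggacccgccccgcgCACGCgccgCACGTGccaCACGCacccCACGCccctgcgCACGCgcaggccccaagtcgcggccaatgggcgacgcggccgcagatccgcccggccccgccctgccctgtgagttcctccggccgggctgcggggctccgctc

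CA9 has 1 ACGTG core, which begins 18 bases before the start on the opposite strand. ANKRD37 has 3, from the CACGTG at 162 and 161 bases and a core at 143 bases upstream. BHLHE40 has 4, from the CACGTG at 245 and 244 bases and cores at 174 and 149 bases. BNIP3 has 2, from the CACGTG at 134 and 133 bases, among 4 GCGTG cores. Over the 9 windows of the 8 genes with an entry (HIF1A has 2 starts), 4 windows (44.4%) held ACGTG, beside 21.4% of 35116 windows of all genes, and 7 (77.8%) held either core, beside 48.4%. Both shares were alike in 77 windows of the other hypoxia-responsive genes described below, at 46.8% and 80.5%. In 23 windows of the oxygen-sensing genes described below they were 17.4% and 47.8%. GC content was 66.1% in the 9 windows and 57.5% in all, and its part in these shares was not tested. EPAS1, ADM and 1 HIF1A window held GCGTG alone, and neither core is in the windows of EGLN3 and the other HIF1A start. A core is a match of letters and not a measured binding site.

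**Figure D2:**
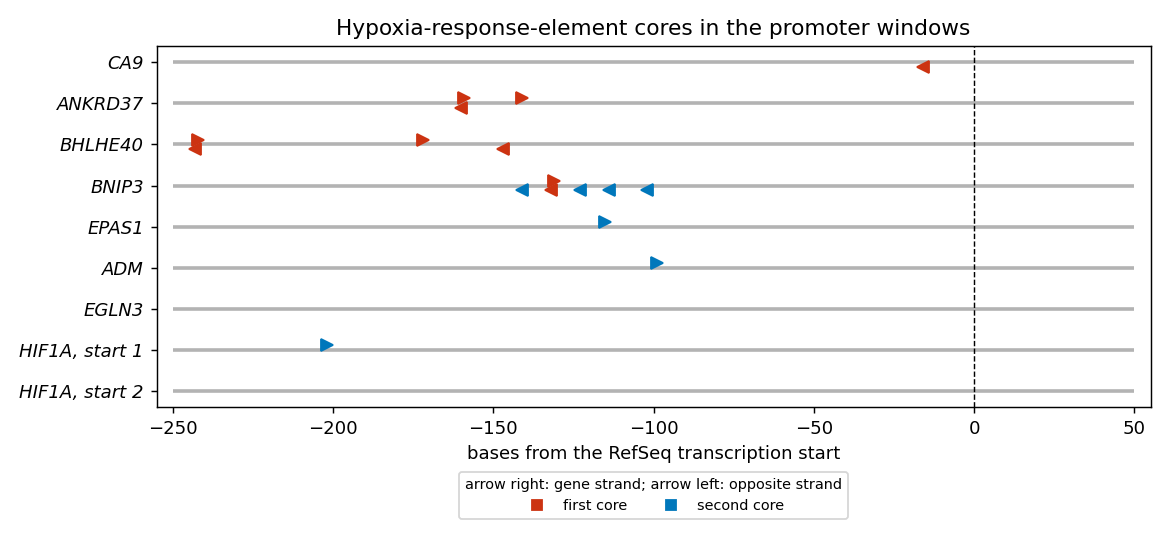
Positions of the cores in the promoter windows of the genes with an entry; the horizontal axis gives bases from the RefSeq start (dashed line), grey bars the windows, red arrows ACGTG (first core) and blue arrows GCGTG (second core), pointing right on the gene's strand and left on the opposite one. The cores lie from 245 to 18 bases upstream, none after the start, and the CA9 core is the closest to it.

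CA9 (chr9:35673856-35681159, plus strand), the carbonic anhydrase of the outer cell surface, which hydrates carbon dioxide and takes part in pH control, is widely used as a hypoxia marker and was a low-level gene in all lines. Counts were 179, 151 and 150 in the MCF10A libraries, 52, 49 and 44 in those of MCF10AT1 and 201, 172 and 200 in those of MCF10Ca1a, or 2.42 ± 0.331, 0.743 ± 0.0355 and 5.46 ± 0.298 CPM (SD, n = 3). The lines did not overlap. CA9 was 3.25-fold lower in MCF10AT1 than in MCF10A (log2 fold change -1.70, SE 0.14, edgeR adjusted p = 1.67e-07). It was 2.25-fold higher in MCF10Ca1a than in MCF10A (log2 fold change 1.17, SE 0.122, edgeR adjusted p = 7.1e-07) and 7.33-fold higher than in MCF10AT1 (log2 fold change 2.87, SE 0.139, edgeR adjusted p = 2.28e-10). The last was the largest difference among the 10 genes in the 3 comparisons on the count scale, yet at 5.30 TPM in MCF10Ca1a CA9 remained far below HIF1A or VEGFA in abundance.

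VEGFA (chr6:43770184-43786487, plus strand), the secreted growth factor for blood vessels, was expressed at 161, 166 and 164 CPM in MCF10A, 114, 109.7 and 120.4 CPM in MCF10AT1 and 269, 266 and 242 CPM in MCF10Ca1a. Each line formed its own band. VEGFA fell in MCF10AT1 (log2 fold change -0.51, SE 0.0569, edgeR adjusted p = 3.38e-06) and rose in MCF10Ca1a, 1.59-fold over MCF10A (log2 fold change 0.67, SE 0.0569, edgeR adjusted p = 8.12e-08) and 2.26-fold over MCF10AT1 (log2 fold change 1.18, SE 0.0575, edgeR adjusted p = 2.53e-10). ADM (chr11:10304680-10307397, plus strand) encodes adrenomedullin, a secreted vasodilator peptide. Its levels were 11.3, 11.8 and 11.2 CPM in MCF10A, 10.6, 11.8 and 9.78 CPM in MCF10AT1 and 21.7, 22.1 and 20.9 CPM in MCF10Ca1a, so that MCF10Ca1a stood apart from both other lines, which overlapped. ADM was 1.89-fold and 2.01-fold higher in MCF10Ca1a than in MCF10A and MCF10AT1 (log2 fold change 0.92, SE 0.0699, edgeR adjusted p = 2.37e-08, and log2 fold change 1.01, SE 0.0703, edgeR adjusted p = 1.06e-08). Between MCF10AT1 and MCF10A it did not pass the test, at -0.092 (SE 0.07, edgeR adjusted p = 0.271) and a 95% interval of -0.26 to 0.079, whereas on log2(TPM + 1) the decrease was -0.24 (limma adjusted p = 0.0321), beside a median of -0.070 over all genes. With 1 library left out, the edgeR value of ADM ran from -0.17 to -0.030 and did not pass.

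NDRG1 (chr8:133237171-133302022, minus strand), a stress-responsive gene named for its regulation by MYCN, went against VEGFA and ADM in MCF10Ca1a. It was present at 142, 123 and 117 CPM in MCF10A, 127, 129 and 119 CPM in MCF10AT1 and 54.8, 51.1 and 57.3 CPM in MCF10Ca1a. The 3 MCF10Ca1a libraries were below all 6 others. NDRG1 was 2.34-fold lower in MCF10Ca1a than in MCF10A (log2 fold change -1.23, SE 0.0746, edgeR adjusted p = 1.98e-09) and 2.30-fold lower than in MCF10AT1 (log2 fold change -1.20, SE 0.0746, edgeR adjusted p = 3.12e-09). Between MCF10AT1 and MCF10A the libraries overlapped and the difference did not pass, at -0.026 (SE 0.0716, edgeR adjusted p = 0.776) with a 95% interval of -0.20 to 0.15, a value near 0 that turned to 0.063 without MCF10A replicate 1 (adjusted p = 0.304) and 0.010 without MCF10AT1 replicate 3 (adjusted p = 0.93).

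BNIP3 (chr10:131966455-131982013, minus strand) encodes a mitochondrial outer-membrane protein that directs mitochondria to autophagy. It was measured at 49.2, 50.5 and 52.9 CPM in MCF10A, 29.4, 30.6 and 28.5 CPM in MCF10AT1 and 54.5, 51.3 and 55.8 CPM in MCF10Ca1a. MCF10AT1 was lowest in every library, and the other lines overlapped. BNIP3 was 1.73-fold lower in MCF10AT1 than in MCF10A (log2 fold change -0.79, SE 0.0526, edgeR adjusted p = 1.93e-08) and 1.83-fold higher in MCF10Ca1a than in MCF10AT1 (log2 fold change 0.87, SE 0.0536, edgeR adjusted p = 2.86e-09). Between MCF10Ca1a and MCF10A the difference did not pass, at 0.083 (SE 0.0525, edgeR adjusted p = 0.158) and a 95% interval of -0.045 to 0.21, but the difference passed with DESeq2 size factors (0.12, edgeR adjusted p = 0.0467) and on log2(TPM + 1) (0.18, limma adjusted p = 0.0137). With 1 library left out, the edgeR value of BNIP3 ran from 0.047 to 0.12 and did not pass. Its processed pseudogene BNIP3P1 had at most 13 counts in a library, so few reads of BNIP3 were assigned to that copy.

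ANKRD37 (chr4:185396021-185400628, plus strand), a small ankyrin-repeat gene known chiefly as a HIF target, was low throughout, with 211, 247 and 280 counts in the MCF10A libraries, 124, 113 and 131 in those of MCF10AT1 and 49, 49 and 47 in those of MCF10Ca1a, or 3.71 ± 0.373, 1.89 ± 0.205 and 1.38 ± 0.0662 CPM (SD, n = 3). All MCF10A libraries lay above all others. ANKRD37 was 1.96-fold lower in MCF10AT1 (log2 fold change -0.97, SE 0.124, edgeR adjusted p = 1.31e-05) and 2.68-fold lower in MCF10Ca1a (log2 fold change -1.42, SE 0.139, edgeR adjusted p = 3.5e-07). Between MCF10Ca1a and MCF10AT1 it passed with edgeR (log2 fold change -0.45, SE 0.145, edgeR adjusted p = 0.0118) but not with the DESeq2 Wald test (-0.40, adjusted p = 0.0552) or on log2(TPM + 1) (-0.14, limma adjusted p = 0.193).

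BHLHE40 (chr3:4979116-4985323, plus strand) encodes a transcriptional repressor also known as DEC1, which acts in the circadian clock and in hypoxia. It was found at 70.5, 61.2 and 58.9 CPM in MCF10A, 136, 128 and 133 CPM in MCF10AT1 and 302, 299 and 313 CPM in MCF10Ca1a. No line overlapped another, and BHLHE40 was the only 1 of the 10 genes that rose past the threshold at both steps, from MCF10A to MCF10AT1 (2.09-fold, log2 fold change 1.06, SE 0.0657, edgeR adjusted p = 8.58e-09) and from MCF10AT1 to MCF10Ca1a (2.30-fold, log2 fold change 1.20, SE 0.0652, edgeR adjusted p = 7.53e-10). Over both steps the rise was 4.80-fold (log2 fold change 2.26, SE 0.0676, edgeR adjusted p = 1.26e-12). EGLN3 and ANKRD37 fell at both steps with edgeR, the second of which did not pass on log2(TPM + 1), as given above.

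**Figure D3:**
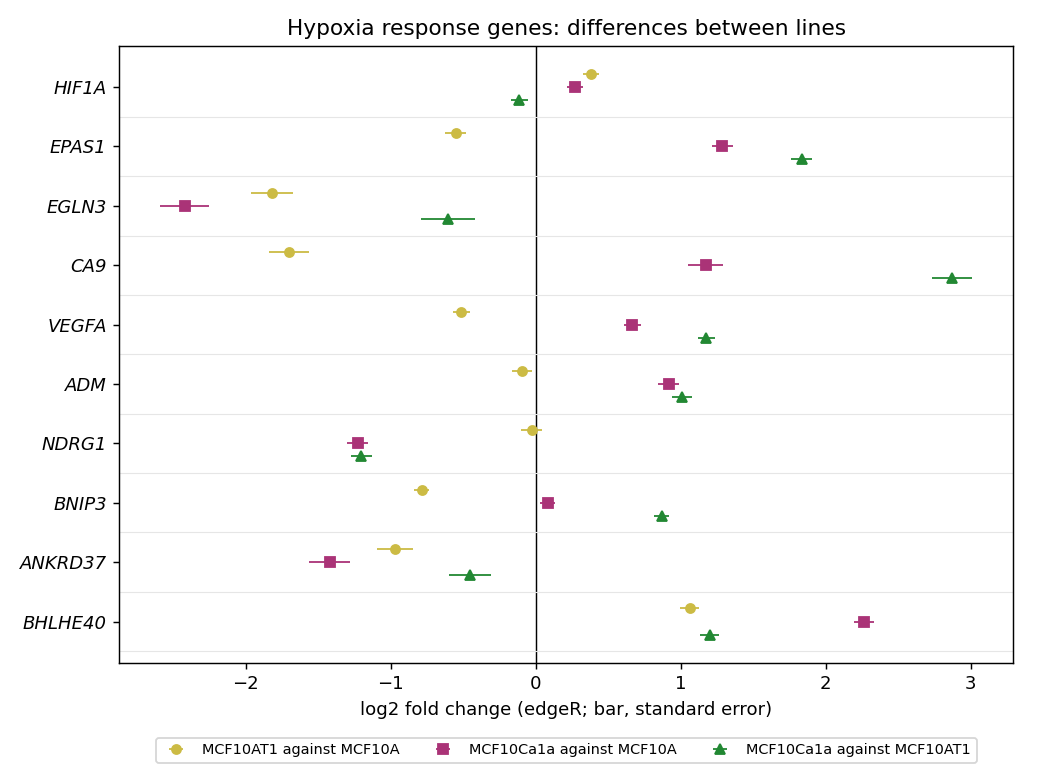
Log2 fold changes of the 10 genes from the edgeR fit (horizontal axis; bars, 1 standard error) in the 3 comparisons, with genes on the vertical axis. CA9 spans from -1.70 in MCF10AT1 against MCF10A to 2.87 in MCF10Ca1a against MCF10AT1, BHLHE40 lies right of 0 and EGLN3 and ANKRD37 left of 0 in all 3 comparisons, and HIF1A lies between -0.11 and 0.38.

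Per length, the most abundant of the 10 in MCF10A were HIF1A (149 TPM), VEGFA (73.9 TPM) and BNIP3 (69.2 TPM), followed by NDRG1 (56.5 TPM) and EPAS1 (52.5 TPM). In MCF10Ca1a the leading genes were HIF1A (190.2 TPM), BHLHE40 (155 TPM), EPAS1 (138 TPM) and VEGFA (136 TPM). BHLHE40 thus moved from 29.4 TPM in MCF10A, below NDRG1, to a level above it, since NDRG1 stood at 27.2 TPM in MCF10Ca1a. The scarcest in MCF10A and MCF10AT1 was CA9 (2.07 and 0.679 TPM), followed by EGLN3, and in MCF10Ca1a it was EGLN3 (0.588 TPM), followed by ANKRD37 (3.91 TPM). The order of the lines within a gene was the same in CPM and TPM for 9 of the 10 genes; HIF1A was highest in MCF10AT1 by CPM and in MCF10Ca1a by TPM.

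The transcript tables showed which forms carried these levels. In EPAS1, ADM, NDRG1, BNIP3 and BHLHE40 a single transcript held at least 85% of the gene's TPM in each line. HIF1A was split between HIF1A-202 (826 codons), at 72.3% ± 1.44, 70.9% ± 1.59 and 76.6% ± 0.703 of the gene's TPM in MCF10A, MCF10AT1 and MCF10Ca1a, HIF1A-203 (827 codons), at 18.2% ± 1.35, 17.6% ± 0.682 and 15.6% ± 0.538, and the shorter HIF1A-201 (735 codons), at 3.16% ± 0.162, 5.15% ± 0.253 and 3.14% ± 0.0406 (SD, n = 3). HIF1A-201 made up 2.97, 3.25 and 3.25 percent of HIF1A in the MCF10A libraries, 4.95, 5.43 and 5.06 percent in MCF10AT1 and 3.13, 3.10 and 3.18 percent in MCF10Ca1a, so every MCF10AT1 library lay above the 6 others. On a log2 scale relative to the other HIF1A transcripts, HIF1A-201 was lower in MCF10Ca1a than in MCF10AT1 by a change of -0.76 (limma adjusted p = 0.0114), which also passed with each library left out. Between MCF10AT1 and MCF10A the change was 0.74 (SE 0.136, limma adjusted p = 0.0487), and this call was lost with each of the 9 libraries left out in turn. VEGFA was spread over 5 transcripts of at least 5%, among them VEGFA-205 (371 codons) at 21.7% ± 6.01, 24.4% ± 8.01 and 28.00% ± 5.12 and VEGFA-206 (147 codons) at 20.3% ± 3.55, 23.9% ± 1.72 and 17.2% ± 2.20, and none of the 5 passed the share test in any comparison with all libraries. Without MCF10AT1 replicate 3, VEGFA-209 passed in MCF10Ca1a against MCF10AT1. With all libraries and the minimum mean of 10 counts, the other calls were of transcripts under 5% of their gene, which are named after their values were seen: ENST00000480614.1 fell relative to the rest of VEGFA in MCF10Ca1a, by a log2 change of -1.27 against MCF10A (limma adjusted p = 0.00585) and -1.23 against MCF10AT1 (0.00899), and ENST00000476772.5, also of VEGFA, rose by 2.16 against MCF10A (0.0139). ENST00000530439.1 of ADM rose in MCF10Ca1a by 1.59 against MCF10A (limma adjusted p = 0.0179) and 1.34 against MCF10AT1 (0.0407), ENST00000519278.5 of NDRG1 rose by 2.06 against MCF10A (0.024), and ENST00000466465.5 of EPAS1 fell by a log2 change of -1.05 against MCF10AT1 (0.0498). Of these transcripts, the calls of both VEGFA transcripts held in every setting tried, and those of the others did not. With a minimum mean of 50 counts, 18 member transcripts were tested and 1, 4 and 5 passed in the 3 comparisons. These included leading transcripts in MCF10Ca1a, NDRG1-201 against MCF10A and both EPAS1-201 and HIF1A-202 against MCF10AT1. Over the 42 tested transcripts of 7 of the genes, 1 passed in MCF10AT1 against MCF10A, 4 in MCF10Ca1a against MCF10A and 4 in MCF10Ca1a against MCF10AT1, beside 1.94%, 20.9% and 15.8% of all 65573 transcripts tested. CA9, ANKRD37 and EGLN3 had fewer than 2 transcripts with enough counts and were not tested. The estimates share reads between forms of a gene, and that uncertainty was not tested.

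Antisense genes named for these loci were scarce. BHLHE40-AS1 was at 0.494, 0.191 and 0.611 CPM in MCF10A, MCF10AT1 and MCF10Ca1a, lower in MCF10AT1 than in MCF10A (log2 fold change -1.37, SE 0.301, edgeR adjusted p = 0.00137) and higher in MCF10Ca1a than in MCF10AT1 (log2 fold change 1.67, SE 0.317, edgeR adjusted p = 0.000256). It thus moved against BHLHE40 between MCF10A and MCF10AT1, where BHLHE40 rose. These calls rest on means of 32.7, 12.3 and 21.3 counts in the 3 lines and were not tried with a library left out. HIF1A-AS1 and HIF1A-AS3 were near 0 in all libraries, EGLN3-AS1 had 0 counts, and none was tested. The library kit keeps strand, but whether the counting used it is not given in the sources used here, so reads of overlapping genes may not be separated.

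The genes that act on the alpha subunits and with them were followed from a list of 17, of which HIF3A was too low to test. In MCF10AT1 against MCF10A 6 of the 16 tested rose and 6 fell, in MCF10Ca1a against MCF10A 7 rose and 9 fell, and in MCF10Ca1a against MCF10AT1 7 rose and 7 fell. The background is the 61.6%, 80.9% and 78.4% of all genes given above. The medians were -0.018, -0.19 and -0.10. On log2(TPM + 1) they were -0.059, 0.032 and 0.094, beside -0.070, 0.063 and 0.13 over all genes, so the sign of both MCF10Ca1a medians turns with the scale and no direction is read from them. The list includes HIF1A, EPAS1 and EGLN3.

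The partner of the alpha subunits was, like EPAS1, lowest in MCF10AT1. ARNT, the shared beta subunit, was at 55.4, 51.4 and 50.03 CPM in MCF10A, 24.8, 23.9 and 23.8 CPM in MCF10AT1 and 58.4, 56.7 and 58.2 CPM in MCF10Ca1a, 2.16-fold lower in MCF10AT1 than in MCF10A (log2 fold change -1.11, SE 0.0516, edgeR adjusted p = 4.57e-10) and 2.39-fold higher in MCF10Ca1a than in MCF10AT1 (log2 fold change 1.26, SE 0.0524, edgeR adjusted p = 5.03e-11). All MCF10AT1 libraries lay below all others. The small excess of MCF10Ca1a over MCF10A (log2 fold change 0.14, SE 0.0507, edgeR adjusted p = 0.0182) shrank to 0.027 (adjusted p = 0.787) with length-scaled counts, 0.036 (adjusted p = 0.729) with scaled counts and 0.068 (adjusted p = 0.385) with no filter. It also did not pass on log2(TPM + 1) (0.19, limma adjusted p = 0.163) or without MCF10A replicate 2 or 3 or MCF10Ca1a replicate 1 or 3 (edgeR adjusted p = 0.103, 0.0938, 0.062 and 0.0553). ARNT2, its scarcer relative, had the same order at 8.65, 2.66 and 12.1 CPM, with log2 fold changes of -1.70 in MCF10AT1 against MCF10A (edgeR adjusted p = 3.79e-08) and 2.18 in MCF10Ca1a against MCF10AT1 (adjusted p = 1.18e-09).

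The oxygen sensors split. EGLN1, the main prolyl hydroxylase of most cells, was at 104, 94.1 and 89.8 CPM in MCF10A, 35.8, 37.02 and 37.2 CPM in MCF10AT1 and 23.8, 22.3 and 21.6 CPM in MCF10Ca1a, and fell at both steps (-1.39 with edgeR adjusted p = 2.12e-10, then -0.70 with adjusted p = 1.76e-07), to 4.25-fold below MCF10A in MCF10Ca1a. It has the same order of lines as EGLN3 above. EGLN2 had the opposite order, at 37.04, 53.8 and 58.9 CPM, higher than in MCF10A by 0.54 (SE 0.0549, edgeR adjusted p = 1.44e-06) in MCF10AT1 and by 0.67 (SE 0.0558, edgeR adjusted p = 6.29e-08) in MCF10Ca1a. Its second step, 0.13 (SE 0.0551, edgeR adjusted p = 0.0432), was lost in 7 of the 9 fits with a library left out, where it ran from 0.089 to 0.14, and among these was kept only without MCF10A replicate 1 or 3. It was also lost with no filter, at 0.043 (adjusted p = 0.605), and with length-scaled and scaled counts, at 0.12 (adjusted p = 0.124) and 0.13 (adjusted p = 0.085). HIF1AN, the asparagine hydroxylase that limits the activity of the alpha subunits, was at 49.8, 46.9 and 44.3 CPM. Its difference between MCF10Ca1a and MCF10A, -0.17 (SE 0.0587, edgeR adjusted p = 0.0171), changed its call in 8 of 11 other settings. It missed the threshold without MCF10Ca1a replicate 1 (adjusted p = 0.0515), with DESeq2 size factors (0.0625), the DESeq2 Wald test (0.0743), length-scaled counts (0.118), scaled counts (0.169) and only the lines compared (0.0533), and had the other sign on log2(TPM + 1), at 0.019 (limma adjusted p = 0.873). From MCF10AT1 to MCF10Ca1a it was -0.082 (SE 0.0588, edgeR adjusted p = 0.215), -0.17 (adjusted p = 0.0174) with no filter, -0.20 (adjusted p = 0.042) with length-scaled counts, -0.10 without MCF10A replicate 1 (adjusted p = 0.0294) and 0.087 on log2(TPM + 1).

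Among the parts of the VHL ubiquitin ligase, VHL itself was higher in MCF10Ca1a than in MCF10A (log2 fold change 0.48, SE 0.0673, edgeR adjusted p = 1.47e-05), while the RING subunit RBX1 was 2.86-fold lower (log2 fold change -1.52, SE 0.104, edgeR adjusted p = 7.55e-09), at 70.2 and 24.5 CPM. RBX1 serves many cullin ligases besides this one. The scaffold CUL2 (log2 fold change -0.38, SE 0.0524, edgeR adjusted p = 1.12e-05) and the adaptor ELOC (log2 fold change -0.32, SE 0.0743, edgeR adjusted p = 0.00122) also fell in MCF10Ca1a, and ELOB (log2 fold change -0.23, SE 0.065, edgeR adjusted p = 0.00475) did so on the unscaled counts but was -0.15 (adjusted p = 0.0808) with length-scaled counts, -0.14 (adjusted p = 0.129) with scaled counts and 0.023 on log2(TPM + 1) (limma adjusted p = 0.688). In MCF10AT1 against MCF10A, ELOB and ELOC rose by 0.35 and 0.29 (edgeR adjusted p = 3e-04 and 0.00344), and VHL, CUL2 and RBX1 did not pass. ELOC was 0.16 (limma adjusted p = 0.0747) on log2(TPM + 1) without a filter. In the same comparison VHL passed without MCF10Ca1a replicate 3 (-0.14, adjusted p = 0.0335) and RBX1 without MCF10A replicate 3 (0.33, adjusted p = 0.00281), beside -0.14 and 0.20 with all libraries. With 1 library left out RBX1 ran from 0.085 to 0.33, and over the other settings from 0.059 to 0.23. RBX1 also passed with the replicate block, at 0.21 (adjusted p = 0.0417), and with no filter, at 0.22 (adjusted p = 0.00202). VHL passed with library totals alone, at -0.17 (adjusted p = 0.0458).

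Of the coactivators, EP300 rose at both steps, from 23.4 CPM in MCF10A to 53.8 in MCF10AT1 and 79.8 in MCF10Ca1a (log2 fold change 1.20, SE 0.0628, edgeR adjusted p = 1.52e-09, and log2 fold change 0.57, SE 0.0611, edgeR adjusted p = 1.06e-06). Its relative CREBBP was lowest in MCF10AT1 (log2 fold change -0.54, SE 0.0662, edgeR adjusted p = 8.72e-06); against MCF10A its change in MCF10Ca1a was -0.21 on the unscaled counts, -0.17 without MCF10Ca1a replicate 2 (edgeR adjusted p = 0.0109 and 0.063) and 0.041 on log2(TPM + 1) (limma adjusted p = 0.754). It did not pass with length-scaled or scaled counts either, at -0.11 (adjusted p = 0.343) and -0.10 (adjusted p = 0.454). CITED2, a HIF target that competes with the alpha subunits for these coactivators, was at 18.3, 16.1 and 17.3 CPM in MCF10A, 24.5, 25.8 and 24.6 CPM in MCF10AT1 and 6.37, 6.81 and 6.88 CPM in MCF10Ca1a. It rose in MCF10AT1 (log2 fold change 0.53, SE 0.0589, edgeR adjusted p = 3.09e-06) and fell in MCF10Ca1a, 2.58-fold against MCF10A (log2 fold change -1.36, SE 0.0693, edgeR adjusted p = 2.85e-10).

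**Figure D4:**
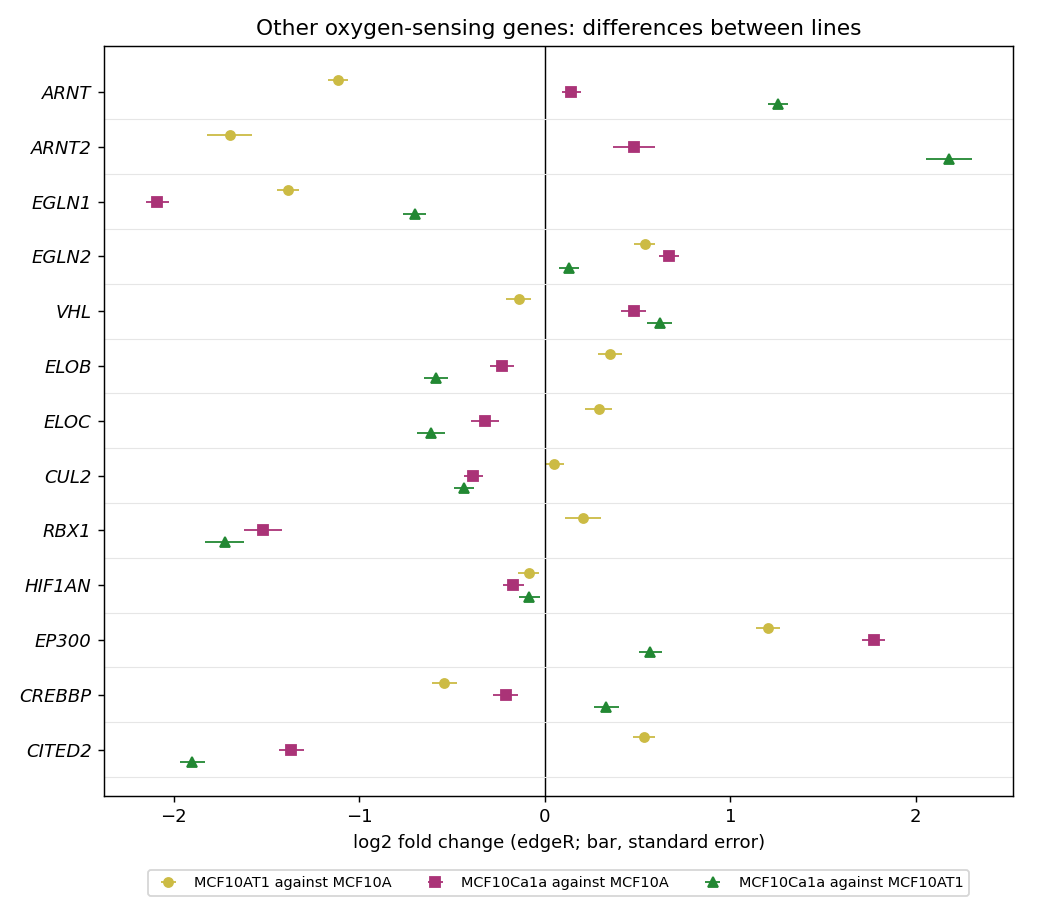
Log2 fold changes from the edgeR fit (horizontal axis; bars, 1 standard error) of 13 other genes that pair with, modify or assist the alpha subunits, in the 3 comparisons. ARNT and ARNT2 lie left of 0 in MCF10AT1 against MCF10A and right of 0 in the others, EGLN1 lies left of 0 and EP300 right of 0 in all 3, and RBX1 and CITED2 lie left of 0 only where MCF10Ca1a is the line compared.

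A wider list of 57 genes known to respond to hypoxia, 54 of them tested, sets the 10 genes beside others of their kind. In MCF10AT1 against MCF10A 25 rose and 19 fell, with a median of 0.039, where 29.8% of all genes were called higher and 31.8% lower. In MCF10Ca1a against MCF10A 28 rose and 20 fell, beside 39.0% and 41.9% of all genes (median of the list 0.40). In MCF10Ca1a against MCF10AT1 30 rose and 21 fell, beside 38.0% and 40.3% (median 0.28, or 0.33 with genes at the count floor set to their bound or left out). The medians of the 10 genes, -0.53, 0.47 and 0.94, stand beside them, and the difference between the lists was not tested. On log2(TPM + 1) the medians of the wider list were -0.081, 0.62 and 0.65, so the first has the other sign there and both others are over 1.5 times their value on counts. Those of the 10 genes were -0.66, 0.61 and 1.16.

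By role, 8 of 20 glucose uptake and glycolysis genes rose and 11 fell in MCF10Ca1a against MCF10A, beside 39.0% of all genes higher and 41.9% lower, and the difference was not tested. ALDOC, an aldolase, rose from 20.3, 20.4 and 17.9 CPM in MCF10AT1 to 131, 132 and 136 CPM in MCF10Ca1a (6.80-fold, log2 fold change 2.77, SE 0.0692, edgeR adjusted p = 4.62e-13). ENO2, a neuronal-type enolase, fell from 132, 111 and 116 counts in MCF10A to 5, 7 and 6 in MCF10Ca1a (log2 fold change -3.38, SE 0.235, edgeR adjusted p = 8.54e-09). Over the other settings, which include log2(TPM + 1), the ENO2 value ran from -3.46 to -0.83. PGAM1, the phosphoglycerate mutase, fell 2.68-fold from MCF10AT1 to MCF10Ca1a (log2 fold change -1.42, SE 0.0542, edgeR adjusted p = 2.04e-11; its retrocopy PGAM4 had at most 65 counts in a library). The glucose transporter SLC2A3 had 55, 41 and 43 counts in the MCF10A libraries, 245, 247 and 225 in those of MCF10AT1 and 0, 0 and 1 in those of MCF10Ca1a, so that it was at least 42.8-fold lower in MCF10Ca1a than in MCF10AT1 and at least 8.18-fold lower than in MCF10A, against a floor of 3 counts per library. Near-identical SLC2A14 had at most 2 counts. Among the pH genes, CA12, another membrane carbonic anhydrase, fell in MCF10AT1 (log2 fold change -1.59, SE 0.0816, edgeR adjusted p = 1.26e-09) as CA9 did, but in MCF10Ca1a, where CA9 rose, CA12 stood below MCF10A (log2 fold change -2.31, SE 0.0859, edgeR adjusted p = 1.1e-11).

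The largest fall of the list was in a secreted signal. ANGPTL4, an inhibitor of lipoprotein lipase, had 21637, 19232 and 18921 counts in the MCF10A libraries, 7511, 7561 and 6434 in those of MCF10AT1 and only 4, 4 and 7 in those of MCF10Ca1a (log2 fold change -11.02, SE 0.158, edgeR adjusted p = 1.73e-15 against MCF10A). That value ran from -11.1 to -7.50 over the other settings, which include log2(TPM + 1). STC1, a secreted glycoprotein hormone, fell in the same order, from 22.6 to 5.91 and 3.06 CPM, 3.83-fold in MCF10AT1 (log2 fold change -1.94, SE 0.103, edgeR adjusted p = 1.9e-09). VEGFA, also secreted, was in contrast higher in MCF10Ca1a than in MCF10A. PDGFB, a growth factor chain for pericytes and fibroblasts, rose from 8, 13 and 7 counts in the MCF10A libraries to 326, 322 and 299 in those of MCF10AT1 and 183, 182 and 225 in those of MCF10Ca1a (log2 fold change 5.08, SE 0.187, edgeR adjusted p = 4.54e-11, and log2 fold change 5.29, SE 0.189, edgeR adjusted p = 7.34e-12). IGFBP3, a binding protein of insulin-like growth factors, rose at both steps (1.01, 8.35 and 21.8 CPM; 3.04 and 1.38 with edgeR adjusted p = 1.47e-11 and 1.01e-09).

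Among stress and growth control genes, BHLHE41 (DEC2), the close relative of BHLHE40, rose in the same order. It was at 1.36, 1.24 and 1.12 CPM in MCF10A, 10.7, 10.6 and 10.7 CPM in MCF10AT1 and 84.8, 82.1 and 82.5 CPM in MCF10Ca1a, 67.2-fold over MCF10A (log2 fold change 6.07, SE 0.069, edgeR adjusted p = 6.3e-16). Per length, BHLHE40 was still the more abundant in MCF10A, at 29.4 TPM against 0.962 TPM. CXCR4, a chemokine receptor named here after its values were seen, had 14, 16 and 22 counts in MCF10A and 0 in each MCF10Ca1a library, at least 3.03-fold lower against the same floor. HMOX1, the heme-degrading enzyme, rose 6.62-fold from MCF10AT1 to MCF10Ca1a (log2 fold change 2.73, SE 0.0906, edgeR adjusted p = 5.5e-12). In the small group for mitochondria and autophagy, to which BNIP3 belongs by function, all 4 tested genes rose in MCF10AT1 against MCF10A, where BNIP3 fell and 29.8% of all genes were called higher. The 6 matrix enzymes, 4 hydroxylases and the lysyl oxidases LOX and LOXL2, had 3 higher and 3 lower in that comparison, and 3 higher and 2 lower in MCF10Ca1a against MCF10A. Of the 4 histone demethylases 3 rose in MCF10Ca1a against MCF10A, where 39.0% of all genes were called higher and 41.9% lower. With so few genes a role, nothing is read from these counts.

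**Figure D5:**
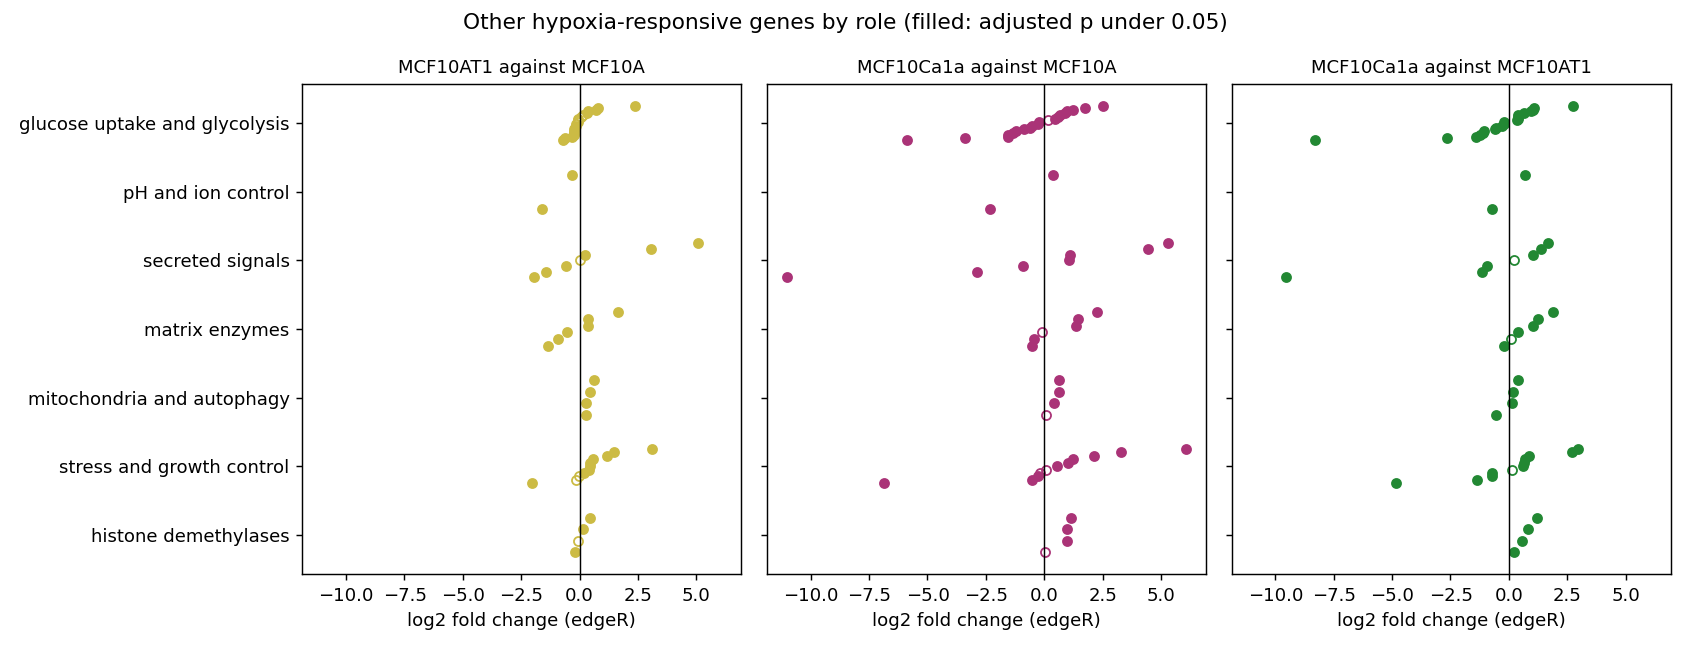
Log2 fold changes from the edgeR fit (horizontal axes) of the 54 other hypoxia-responsive genes tested, by role (vertical axis), in the 3 comparisons; filled points passed the test, open points did not, and the height within a role only spreads the points. Every role with more than 4 genes has members on both sides of 0, and the leftmost point is ANGPTL4 at -11.02 in MCF10Ca1a against MCF10A. SLC2A3 and CXCR4 had at most 1 count per MCF10Ca1a library, so their fitted values there are no measure of size. ANGPTL4 and ENO2 averaged 5 and 6 counts per MCF10Ca1a library, and the size of their fall moved with the setting.

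Markers of other cell types were checked beside these results. The 6 endothelial markers summed to at most 1.4 TPM in MCF10A and MCF10AT1 and to 15.7 to 21 TPM in MCF10Ca1a, almost all of it PECAM1 (18.7 TPM), with CDH5 at 0 counts in MCF10A and MCF10Ca1a. KDR and TEK went the other way, from means of 37.3 and 22 counts in MCF10A to 0.333 and 2.67 in MCF10Ca1a. The 6 fibroblast and pericyte markers summed to 6.43 to 7.2 TPM in MCF10A, 27.7 to 31.5 TPM in MCF10AT1, led by DCN (27.9 TPM), and 1.94 to 2.33 TPM in MCF10Ca1a. COL1A1 went against that sum in MCF10AT1, at 3.06, 0.961 and 1.79 TPM in MCF10A, MCF10AT1 and MCF10Ca1a. The 5 leukocyte markers summed to 10.9 to 16.8, 3.17 to 3.5 and 30.8 to 33.6 TPM, mostly CD68, with CD3E at 0 in all lines. CSF1R did not follow the sum in MCF10Ca1a, at 3.11, 0.663 and 0.604 TPM in the same order. The 3 red cell markers summed to at most 2.86 TPM, with HBB and ALAS2 at 0. Their part in the levels of VEGFA, EPAS1 and the other genes was not tested.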

How the data were processed

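RNA of 9 libraries, 3 for each of 3 cell lines, was quantified with Salmon against hg38, per the submitters' processing notes; versions, the annotation and the use of strand are not given in the sources used here. The deposited tables hold estimated counts and TPM per gene and per transcript; the gene table also comes as length-scaled and scaled estimated counts, which served as alternatives. Groups come from the sample titles. The members and all gene lists were chosen with earlier results of these data known.

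Estimated counts were rounded and tested with edgeR 4.0.16 (R 4.3.3; quasi-likelihood test, trimmed mean of M-values, filterByExpr with a minimum count of 10 and total of 15), all 9 libraries in 1 fit without a replicate term, p-values adjusted over all 17910 genes (Benjamini-Hochberg, 0.05) and 95% intervals on 6 residual degrees of freedom. TPM were tested with limma 3.58.1 on log2(TPM + 1), which understates changes of low genes. Transcript shares used limma on log2 of the transcript's count + 1 over the rest of its gene + 1, for a mean of at least 10 counts. The procedures were tested on simulated data. In them edgeR recovered 153 of 200 planted changes and the share test 68 of 200 planted genes. A share that did not pass may therefore still differ. The level of 1 leukocyte marker is not reported here. Gene positions are from GENCODE 29 on GRCh38, and promoter windows from RefSeq on GRCh38.p14, searched for ACGTG and GCGTG on both strands. Genes named are the 10 members, the oxygen-sensing list, member antisense genes, transcripts of at least 5% of a member, and per comparison the 3 largest rises and 3 largest falls among the other responsive genes whose higher line averages 100 counts or more. Alternatives were DESeq2 1.42.0, its size factors, library totals, no filter, the scaled tables, only the lines compared, a replicate block, pseudocounts, and leaving out each library.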

Additional observations from a re-analysis of the deposited data

How the results depend on the processing

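Of 600 values (30 pairs of member and comparison under 20 settings), 573 kept their direction and side of the threshold, and 24 of the 30 pairs did so in every setting. The 6 others are HIF1A, ANKRD37 and EGLN3 in MCF10Ca1a against MCF10AT1, ADM and NDRG1 in MCF10AT1 against MCF10A, and BNIP3 in MCF10Ca1a against MCF10A. Members called ranged from 8 to 9, 9 to 10 and 7 to 10 in the 3 comparisons (MCF10AT1 and then MCF10Ca1a against MCF10A, then MCF10Ca1a against MCF10AT1). The log2 change of NDRG1 in MCF10AT1 against MCF10A turned to 0.0019 with only the lines compared and ranged from -0.087 to 0.063 with 1 library left out, turning without MCF10A replicate 1 or MCF10AT1 replicate 3. HIF1AN there turned to 0.052 with length-scaled and 0.051 with scaled counts. With limma on log2(TPM + 1), with or without the filter, and with a pseudocount of 0.1, respectively, the sign turned for CUL2 in MCF10AT1 against MCF10A (-0.049 and -0.050), for HIF1AN (0.019 and 0.021), ELOB (0.023 and 0.023) and CREBBP (0.041 and 0.045) in MCF10Ca1a against MCF10A, and for HIF1A (0.10 and 0.10) and HIF1AN (0.087 and 0.092) in MCF10Ca1a against MCF10AT1. The cause was not tested.

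Same-numbered libraries did not deviate together (Pearson r over genes from -0.136 to 0.159), so the numbers were not taken as pairs. With the replicate block, 8, 9 and 9 members were called, as without it, RBX1 in MCF10AT1 against MCF10A passed (0.21, edgeR adjusted p = 0.0417), and 0, 3 and 2 member transcripts changed share by limma, against 1, 4 and 4. In the first comparison 4 of 42 had an unadjusted p under 0.05 with the block, against 5. With 1 library left out, 0 to 1, 3 to 5 and 2 to 4 transcripts were called, and 4 to 8 had an unadjusted p under 0.05 in the first. Depth limits EGLN3, ANKRD37 and CA9, with under 60 counts in some libraries.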
